A study of Mus musculus with 2 samples.

Results

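WNT ligands and their receptors were followed in cultured mouse ureters in which Cre from the Tbx18 locus was used to delete the FGF receptor genes Fgfr1 and Fgfr2. The members were all genes on the array named as a Wnt or a Fzd with a number, together with Lrp5, Lrp6, Ror1, Ror2 and Ryk. This gave 34 of 30011 gene names on the array, of which 19 were ligands and 15 were receptors. They were covered by 43 probes, each printed in 4 spots.

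Total RNA came from ureters that were dissected at stage E15.5 and kept on a membrane for 6 days, in the strain NMRI. Mutants were Tbx18(cre/+) and carried both receptor genes as floxed homozygotes, Fgfr1(fl/fl) and Fgfr2(fl/fl), and the control genotype was Fgfr1(fl/?);Fgfr2(fl/?), with no Cre allele listed. Floxed alleles were therefore present in both groups, and the loss of the receptors cannot be told apart from the Cre insertion at the Tbx18 locus. Tbx18 is known to be active in the mesenchyme around the ureter and not in its epithelium. There were 2 two-colour arrays on the same slide, each with 1 mutant and 1 control RNA. The male label goes with array 1, where the mutant RNA carried Cy5, and the female label with array 2, where it carried Cy3. Replicate, sex label and dye therefore cannot be told apart. The labels do not say how many embryos went into each RNA or whether the replicates were separate litters. The p-values therefore reflect the spread of these RNA pairs alone, and that spread may be technical. In the test each gene's own spread was pooled with that of all genes, so its SD alone does not set its p-value.

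WNT proteins are secreted, lipid-modified signals that bind Frizzled receptors. With the co-receptors Lrp5 or Lrp6 they stabilise beta-catenin and switch on target genes through TCF and LEF factors, the canonical branch. Ror1, Ror2 and Ryk are alternative receptors or co-receptors, best known for responses that do not need beta-catenin. In the developing ureter, Wnt7b and Wnt9b are made by the epithelium and act on the mesenchyme next to it, where canonical signalling is needed for the smooth muscle layer.

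Both cell layers were present in the RNA. All 14 urothelial and all 6 smooth muscle markers looked for were well above background in mutant and control RNA on both arrays, by the scanner software's own test. Between 70.3% and 78.3% of gene spots reached that level in the 4 channels. Of the targeted genes, Fgfr1 stood at a log2 mutant to control ratio of -0.33 ± 0.15 (SD, n = 2; limma adjusted p = 0.134) and Fgfr2 was higher, at 0.56 ± 0.02 (SD, n = 2; limma adjusted p = 0.0309). Further Fgfr1 probes had -0.54 and -0.37, and another Fgfr2 probe had 0.76. Since the labels do not name the floxed exons, these probes do not check the deletion. Ratios are given from here on as log2 mutant over control, with mean ± SD over the 2 arrays, and the number of arrays limits their precision. Adjusted p-values are limma's over 22070 genes, with 0.05 as the threshold.

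Among the ligands, 3 of the 12 that could be tested rose in the mutant RNA and 0 fell. They were Wnt4, which drives nephron progenitors to become epithelium in the kidney, Wnt10a, a ligand known from skin and teeth, and Wnt6, a ligand of many epithelia. Over all genes tested, 3.79% passed, made up of 1.76% that rose and 2.03% that fell, so the ligands that rose, 25.0% of those tested, made up a larger share than in the array as a whole. At an unadjusted limma p below 0.05 there were 6 of 12, against 22.5% of all genes, and of these Wnt16 was lower. No test was made of these shares.

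Wnt4 was read by 2 probes. The brighter one, at chr4:136855342-136855401 (mm9, plus strand), had a normalised log2 signal of 13.64 in mutant and 13.07 in control RNA on array 1. On array 2 the signals were 14.31 and 13.33. Both mutant samples thus lay above both controls. The mean log2 ratio was 0.78 ± 0.29 (SD, n = 2; limma adjusted p = 0.0228), a 1.72-fold difference. The dimmer probe is shown because it appears, from the span given next, to cross a splice junction and so to read spliced Wnt4 message. It was read in the same RNA pairs as the first probe. Its 60 bases map to a stretch of 569 on chromosome 4, from 136851690 to 136852258 (mm9, plus strand).
Wnt4 junction probe: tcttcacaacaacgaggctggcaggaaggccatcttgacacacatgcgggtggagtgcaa
This second probe had ratios of 0.44 on array 1 and 0.58 on array 2, with a mean of 0.51 ± 0.10 (SD, n = 2). It went the same way as the first on both arrays, with a smaller size.

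Wnt6 and Wnt10a lie side by side on chromosome 1. Their probes, at chr1:74831461-74831520 and chr1:74850633-74850692 (mm9, plus strand), are 19.2 kb apart, and no other protein-coding gene begins between the 2 genes in the RefSeq table. Wnt6 had signals of 9.92 in mutant and 9.38 in control RNA on array 1, and of 10.62 and 9.90 on array 2. Its ratio was 0.63 ± 0.12 (SD, n = 2; limma adjusted p = 0.0248), a 1.55-fold difference. Wnt10a had 9.51 in mutant and 8.99 in control RNA on array 1, and 10.29 and 9.48 on array 2. Its ratio was 0.67 ± 0.20 (SD, n = 2; limma adjusted p = 0.0248), a 1.59-fold difference. For both genes the lower mutant sample exceeded the higher control by a small margin only, since array 2 read higher in both genotypes.

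Other Wnt genes that are neighbours did not pass as pairs. Wnt10b and Wnt1, on chromosome 15 with probes 22.0 kb apart, had ratios of -0.05 ± 0.12 and -0.18 ± 0.00 (SD, n = 2). A second Wnt1 probe had -0.25 ± 0.04. In the pair Wnt3a and Wnt9a on chromosome 11, Wnt9a had 0.23 ± 0.09 and Wnt3a was not well above background. Wnt9b and Wnt3, also on chromosome 11, were not tested for the same reason.

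Wnt7b, the ureteric epithelial ligand, did not pass. Its probe at chr15:85366896-85366955 (mm9, minus strand) had signals of 8.32 in mutant and 8.02 in control RNA on array 1, and of 8.77 and 8.08 on array 2. The controls were close to each other, and both mutant samples lay above them. The mean ratio was 0.50 ± 0.27 (SD, n = 2; limma adjusted p = 0.0637), with 0.31 on array 1 and 0.69 on array 2. It passed with a smaller background offset (adjusted p = 0.0310 by limma), among probes detected in all channels (0.0482) and with a variance trend (0.0318). It did not pass under the other tested settings, where adjusted p reached 0.392 in separate channels.

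Wnt9b, the other ligand known from the ureteric epithelium, was well above background in the control RNA of array 1 only. The same held for Wnt7a. Wnt2, Wnt2b, Wnt3, Wnt3a and Wnt8a were not well above background in any of the 4 samples. No difference in these 7 ligands was detectable on these arrays, and they are not counted above.

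**Figure D1:**
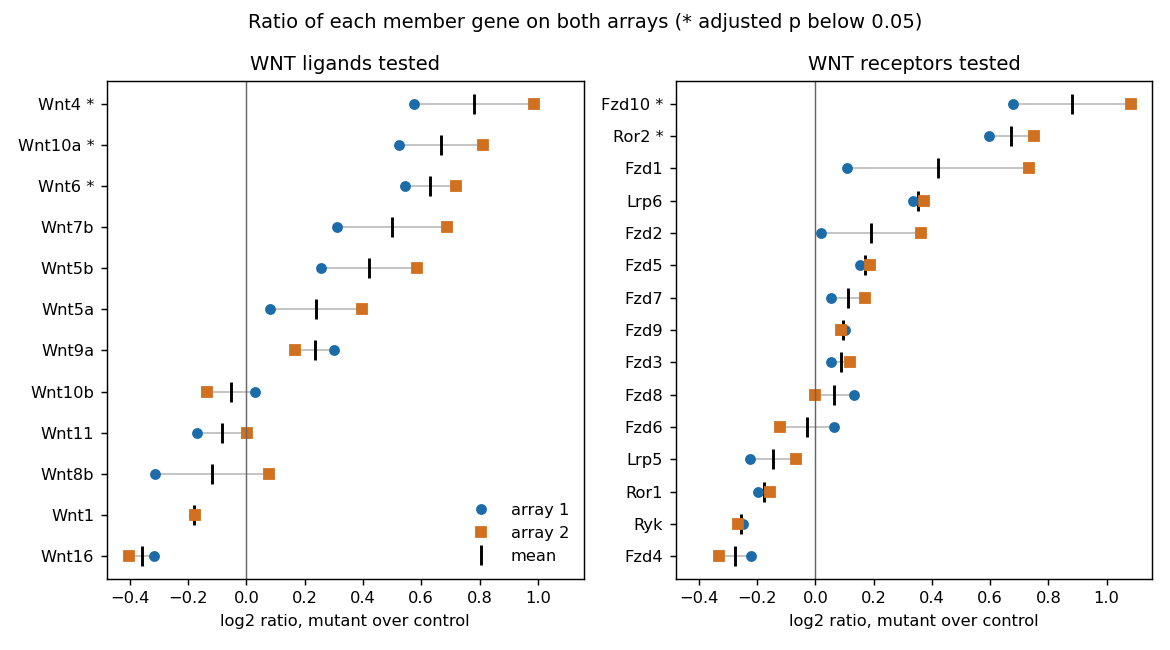
Log2 ratio of mutant over control (x axis) for each of the 12 tested ligands and 15 tested receptors, with a circle for array 1, a square for array 2 and a bar for their mean. The 3 ligands and 2 receptors marked with a star lie above 0.5 on both arrays, and for each of them array 2 gave the larger ratio.

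The other 8 tested ligands ranged from -0.36 to 0.42. Wnt5b and Wnt5a, the ligands best known for signalling without beta-catenin, had ratios of 0.42 ± 0.23 and 0.24 ± 0.22 (SD, n = 2), both above 0 on both arrays. Wnt16 had the lowest ratio, at -0.36 ± 0.06 (SD, n = 2; limma adjusted p = 0.0987), with -0.32 on array 1 and -0.40 on array 2. Its second probe was well above background in the control RNA of array 1 only and was not tested. Wnt11, a ligand of ureteric bud tips, had -0.08 ± 0.12, and Wnt8b had -0.12 ± 0.28, with opposite signs on the 2 arrays. In all, 7 tested ligands were above 0 on both arrays, against 30.5% of all genes, and 2 were below 0 on both, against 36% of all genes. Their median ratio was 0.24, with 0.17 on array 1 and 0.28 on array 2, while the median of all genes was -0.02. With median centring in place of loess the ligand median was 0.058, and with no filter on dim probes it was 0.043.

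Of 15 receptors, all tested and all well above background in every sample, 2 rose and 0 fell, which is 13.3% against the 1.76% of all genes that rose. They were Fzd10, a Frizzled receptor, and Ror2, a receptor tyrosine kinase family member through which Wnt5a acts. The other 13 did not pass. At an unadjusted limma p below 0.05 there were 6 of 15, against 22.5% of all genes, and of these Fzd4 and Ryk were lower. The median over all 15 was 0.10, with 0.06 on array 1 and 0.12 on array 2. With median centring in place of loess it was -0.035, while the median of all genes moved by -0.12.

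Fzd10 had the largest ratio of any member. Its probe at chr5:129109798-129109857 (mm9, plus strand) had signals of 10.15 in mutant and 9.47 in control RNA on array 1, and of 10.88 and 9.79 on array 2. No control sample reached a mutant one. The ratio was 0.88 ± 0.28 (SD, n = 2; limma adjusted p = 0.0179), a 1.84-fold difference. Ror2, at chr13:53204795-53204854 (mm9, minus strand), had 11.99 in mutant and 11.40 in control RNA on array 1, and 12.45 and 11.70 on array 2. Its ratio was 0.67 ± 0.11 (SD, n = 2; limma adjusted p = 0.0228), a 1.59-fold difference, again with no overlap. Each of these receptors was read by a single probe.

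**Figure D2:**
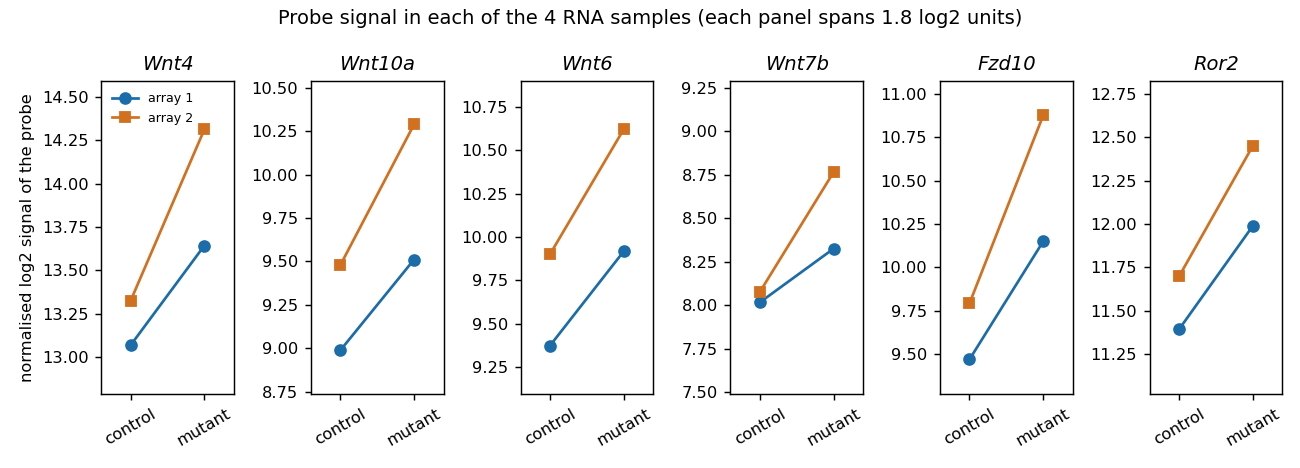
Normalised log2 signal (y axis, 1.8 units in each panel) of the representing probe of 6 members in control and mutant RNA, with a line joining the samples of an array. The line rises from control to mutant on both arrays in each panel, and Wnt7b rose least on array 1, by 0.31.

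The remaining Frizzleds ranged from -0.28 to 0.42, at percentiles 9.65 and 96.7 among all genes. Fzd1 had 0.42 ± 0.44 (SD, n = 2; limma adjusted p = 0.152), with 0.11 on array 1 and 0.73 on array 2, the widest gap between arrays of any member. Its relatives Fzd2 and Fzd7 had 0.19 ± 0.24 and 0.11 ± 0.08, and their second probes had 0.34 ± 0.15 and 0.16 ± 0.04. One probe of each comes from the same part of the coding sequence, and the pair is printed because each could bind the other's message. Capitals mark the 42 of 50 aligned bases that are identical. The Fzd2 probe lies at chr11:102467613-102467672 and the Fzd7 probe at chr1:59541367-59541426 (mm9, both plus strand).
Fzd2: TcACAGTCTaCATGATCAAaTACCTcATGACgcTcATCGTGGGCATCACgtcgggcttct
Fzd7: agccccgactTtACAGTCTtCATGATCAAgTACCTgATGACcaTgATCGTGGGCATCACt
Among the 894 pairs of probes from different members, no other ungapped alignment had more than 28 identical bases. The Fzd2 value rests on the printed probe, its brighter one, so the 2 genes' readings may not be separate, and this was not tested. The Fzd7 value of 0.11 rests on another probe, and the printed one is its dimmer one, at 0.16.

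Fzd3 and Fzd6, which act in tissue polarity, had 0.09 ± 0.05 and -0.03 ± 0.13. Fzd9 had 0.10 ± 0.01, and Fzd8 had 0.07 ± 0.09. The Fzd5 probes disagreed, with 0.17 ± 0.03 for the brighter and -0.14 ± 0.14 for the dimmer (SD, n = 2). Fzd4, which is also the receptor for norrin on blood vessels, had -0.28 ± 0.08 (SD, n = 2; limma adjusted p = 0.175), the lowest ratio among receptors. Endothelial markers were lower in the same RNA, with 5 of 7 falling and a median of -0.61. Their part in the Fzd4 value was not tested.

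Apart from Ror2, the co-receptors and alternative receptors did not pass. Lrp6 had 0.35 ± 0.03 (SD, n = 2; limma adjusted p = 0.101), but its dimmer probe had 0.06 ± 0.20 with opposite signs on the arrays. Lrp5 had -0.14 ± 0.11. Ryk, a receptor with an inactive kinase domain, had -0.26 ± 0.01 (SD, n = 2; limma adjusted p = 0.196). Ror1, the closest relative of Ror2, had -0.18 ± 0.03, while its dimmer probe had 0.09 ± 0.31. Ror1 therefore lay below 0 on both arrays by its brighter probe and Ror2 above 0, and the difference between them was not tested.

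In signal level, both mutant samples lay above both controls for 6 ligands (Wnt4, Wnt5a, Wnt5b, Wnt6, Wnt7b and Wnt10a) and for 6 receptors (Fzd1, Fzd2, Fzd5, Fzd10, Lrp6 and Ror2). This held for 21.5% of all genes. Both mutant samples lay below both controls for Wnt16, Fzd4, Ror1 and Ryk, and for 23.5% of all genes.

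Most members above 0 on both arrays had the larger ratio on the same array. All 5 members that rose had the larger ratio on array 2, as did 59.1% of the 389 genes that rose across the array. Of the 7 ligands and 9 receptors above 0 on both arrays, 6 and 8 were larger on array 2. The matching share over all genes above 0 on both arrays was not worked out, so these counts have no background to be read against.

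Some urothelial markers were higher in the same RNA. Of 14 urothelial markers, 7 rose and 0 fell, among them the transcription factor Gata3, at 1.00 ± 0.33, the uroplakin Upk1a, at 0.97 ± 0.15, and the epithelial cadherin Cdh1, at 0.80 ± 0.14 (SD, n = 2). Their mean signal was 13.88 and 14.00 in mutant RNA and 13.46 in control RNA on both arrays. All 14 were detected in every sample, and the ratio of Epcam was -0.04 and that of Krt5 -0.46. In whole-ureter RNA, more cells of a type and more message per cell cannot be told apart.

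Kidney tubule markers rose too, in 3 of 6 tested. Of these 6, 3 were well above background in every sample, so some of the list's ratios rest on signal near background. Their mean signal was 8.44 and 7.75 in mutant RNA and 7.39 and 7.32 in control RNA. The 3 that rose had their larger ratio on array 1. Cdh16 had 3.43 on array 1 and 1.44 on array 2, and Umod had 1.53 and 0.55. Pax8, at 0.38, and Pax2, at -0.30, did not pass. Pax8 had its larger ratio on array 2, with 0.30 on array 1 and 0.46 on array 2. Lrp2 and Slc12a1 were not well above background in either genotype on both arrays. Markers of ureteric mesenchyme had mean signals of 12.64 and 12.92 in mutant and 12.33 and 12.49 in control RNA, with 2 of 6 higher, Sox9 and Foxf1. In the mesothelium list 2 of 4 rose, Msln and Upk3b, the latter also a urothelial marker. Smooth muscle markers had 0 of 6 passing by limma and 1 at an unadjusted p below 0.05. Falling markers belonged to other cell types, with 6 of 6 adipocyte markers (median -1.95), 5 of 7 endothelial markers, 4 of 6 macrophage markers (median -0.58) and 4 of 8 markers of neurons and Schwann cells (median -0.36) lower. The adipocyte list had mean signals of 11.67 and 9.64 in mutant RNA and of 12.72 and 12.49 in control RNA, the largest shift of the marker lists looked at. The part of any of these cell types in the values of Wnt4, Wnt6, Wnt10a, Fzd10 or Ror2 was not tested.

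The genes that act between ligand and target are given next, to be read against the 1.76% of all genes that rose and the 2.03% that fell. Of 6 genes for the lipid modification, export and removal of WNT proteins, 0 passed by limma, and 0 had an unadjusted p below 0.05, with ratios from -0.17 to 0.26. The acyltransferase Porcn had 0.03 ± 0.04 and the carrier Wls had 0.06 ± 0.15 (SD, n = 2). Of the 8 tested R-spondins, their receptors and the ligases that remove Frizzleds, 1 rose. This was Rspo1, a secreted enhancer of WNT signalling, at 0.76 ± 0.17 (SD, n = 2; limma adjusted p = 0.0194), with 0.63 on array 1 and 0.88 on array 2. Its relative Rspo2 had -0.50 ± 0.45, and the ligases Rnf43 and Znrf3 had 0.36 ± 0.19 and 0.16 ± 0.00.

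Of 21 genes of canonical transduction, 2 rose and 0 fell, the beta-catenin cofactor Pygo2, at 0.56 ± 0.02, and the corepressor Tle1, at 0.49 ± 0.14 (SD, n = 2; limma adjusted p = 0.0308 and 0.0493). Their list had a median of 0.23, and 17 of its 21 genes lay above 0 on both arrays, against 30.5% of all genes. Ctnnb1, which encodes beta-catenin, had 0.06 ± 0.04. In the planar polarity and non-canonical list 1 of 16 genes rose, the cadherin Celsr1, at 0.51 ± 0.12 (SD, n = 2; limma adjusted p = 0.0450), and the list's median was 0.06.

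Downstream, 3 of 8 WNT target genes (37.5%, against 1.76% of all genes) rose and 0 fell by limma. At an unadjusted limma p below 0.05 there were 6, against 22.5% of all genes. The 3 that rose were Sp5, Nkd1 and Lef1, with ratios of 0.80, 0.76 and 0.48, while Axin2 had 0.20 ± 0.27. Of 10 tested secreted inhibitors, 3 rose and 2 fell. Sfrp2, Sostdc1 and Dkk3 were higher at 0.75, 0.63 and 0.49, and Sfrp1 and Sfrp4 were lower at -0.60 and -0.49.

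**Figure D3:**
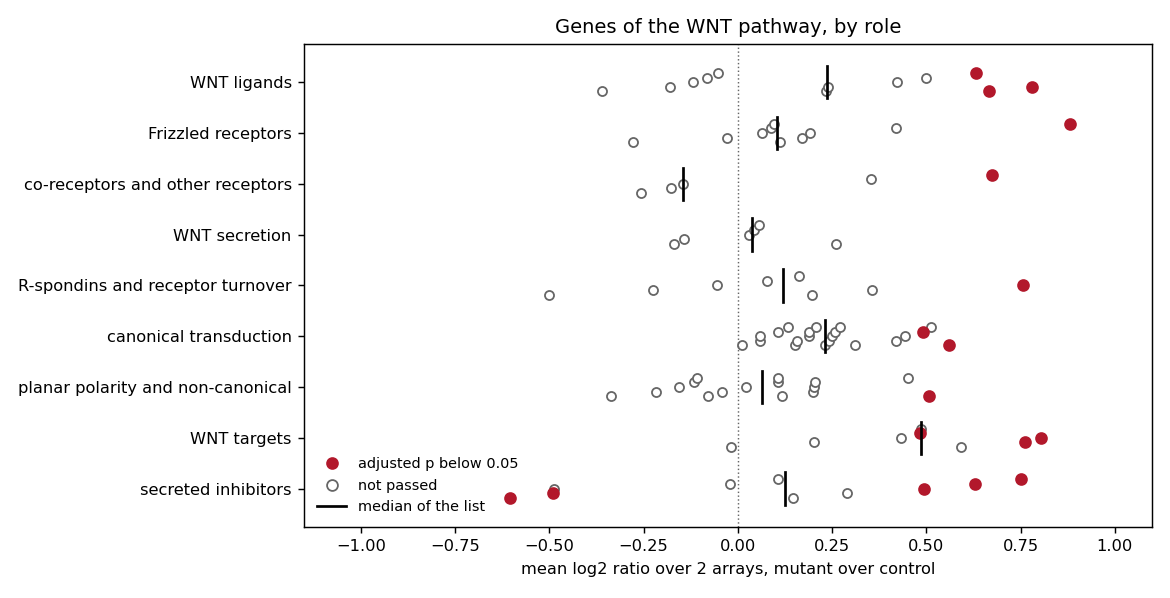
Mean log2 ratio of mutant over control (x axis) for every tested gene of 9 lists of the WNT pathway, with filled points for adjusted p below 0.05, open points for the rest and a bar at each median. Only the secreted inhibitors hold genes that passed on both sides of 0.

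The promoters of the members that rose are shown next, and a link between the changes of these genes was not tested. RefSeq windows were available for 24 of the 34 members and for 4 of the 5 that rose, all but Wnt10a. Each run holds the 250 bases before the transcription start (GRCm38.p6), with CG dinucleotides in capitals. Wnt4 is at chr4:137277385-137277634 (plus strand), Wnt6 at chr1:74771642-74771891 (plus), Fzd10 at chr5:128600856-128601105 (plus) and Ror2 at chr13:53286125-53286374 (minus).
Wnt4: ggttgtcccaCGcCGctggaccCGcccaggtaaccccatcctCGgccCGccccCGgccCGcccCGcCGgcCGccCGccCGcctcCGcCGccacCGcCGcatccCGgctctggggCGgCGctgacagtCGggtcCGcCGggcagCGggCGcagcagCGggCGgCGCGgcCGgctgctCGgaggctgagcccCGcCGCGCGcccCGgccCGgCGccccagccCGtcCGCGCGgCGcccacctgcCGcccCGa
Wnt6: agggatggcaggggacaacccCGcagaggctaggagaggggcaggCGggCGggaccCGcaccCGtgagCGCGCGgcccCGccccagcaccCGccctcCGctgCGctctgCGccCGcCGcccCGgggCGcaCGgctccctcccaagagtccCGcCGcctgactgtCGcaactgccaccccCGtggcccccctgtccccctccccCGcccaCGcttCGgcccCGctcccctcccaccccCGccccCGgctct
Fzd10: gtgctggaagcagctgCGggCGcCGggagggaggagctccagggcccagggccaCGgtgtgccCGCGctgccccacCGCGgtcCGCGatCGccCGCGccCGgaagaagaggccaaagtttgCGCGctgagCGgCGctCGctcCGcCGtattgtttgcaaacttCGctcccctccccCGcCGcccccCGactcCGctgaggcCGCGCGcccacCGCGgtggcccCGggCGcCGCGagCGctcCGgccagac
Ror2: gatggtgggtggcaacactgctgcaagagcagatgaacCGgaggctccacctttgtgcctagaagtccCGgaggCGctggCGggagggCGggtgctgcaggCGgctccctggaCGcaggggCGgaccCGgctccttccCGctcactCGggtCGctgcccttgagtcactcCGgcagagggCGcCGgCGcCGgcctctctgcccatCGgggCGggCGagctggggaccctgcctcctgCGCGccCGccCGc
All 4 are rich in CG dinucleotides. Wnt4 has 44, Fzd10 37, Wnt6 28 and Ror2 24, where the median was 24 over the 27 windows of the members and 6 over all 32851 windows. GC content ran from 73.2% in Ror2 to 85.2% in Wnt4, against a median of 71.6% over the members' windows and 52.4% over all windows. A TCF/LEF motif (CTTTGAT, both strands) was in none of the 4 and in 2 of the 27 member windows, those of Wnt11 and Wnt5b, against 3.21% of all windows. A GLI motif (GACCACCC) and an ETS motif (CCGGAAGT), each on both strands, were in none of the 27, against 0.703% and 2.88% of all windows. At such low shares, few matches or none would be likely in 27 windows, so these counts cannot set the members apart from other genes. The members' windows are also richer in GC than all windows, so the shares are not closely matched. No overlap between motifs was looked for, and these matches describe letters in a short window, not binding.

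The calls depended on the processing, and the ratios stayed above 0 but shifted in size. All 5 members had ratios between 0.46 and 0.96 under the 10 other settings that were tested. Each was lowest with median centring, where they ran from 0.46 to 0.70, against 0.63 to 0.88 as reported. None of them passed with the scanner software's processed signals (adjusted p from 0.0717 to 0.0878), with median centring (0.122 to 0.130) or with separate channels (0.339 to 0.459), all by limma. Fzd10 was the single one to pass with the authors' value table (0.0488) and with processed signals averaged over spots before the log (0.0440), a setting chosen after seeing the data.

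**Figure D4:**
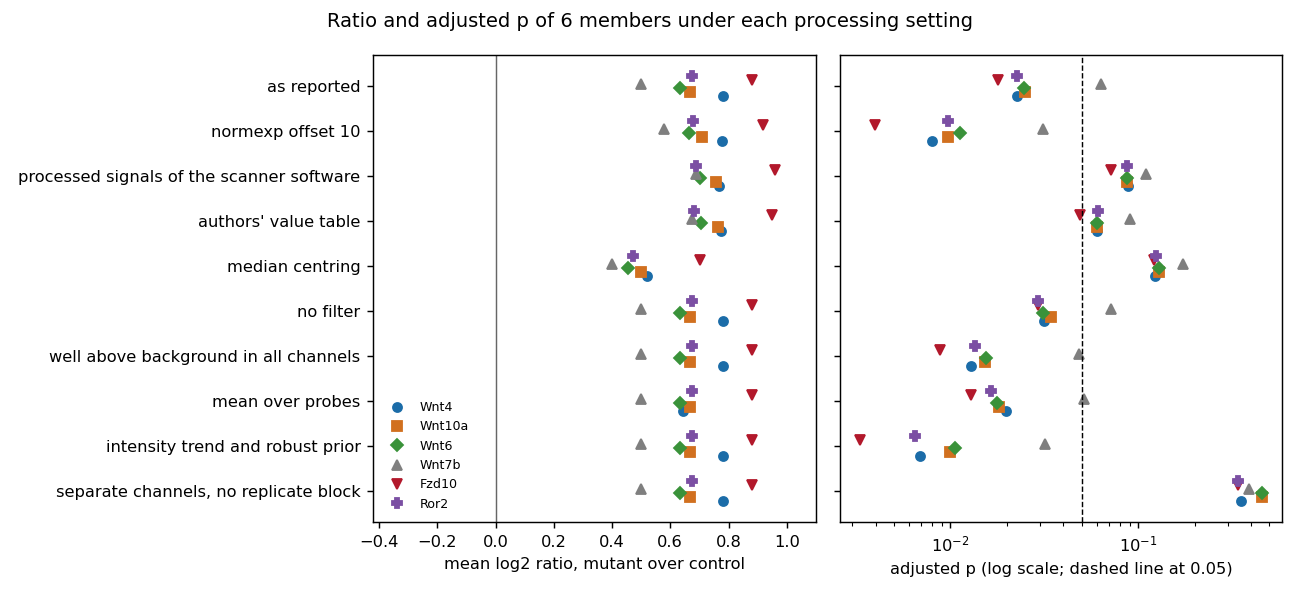
Mean log2 ratio of mutant over control (left) and limma adjusted p on a log scale (right) for 6 members under the reported setting and 9 others. Every ratio plotted lies above 0, while adjusted p crosses the dashed line at 0.05 between settings.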

How the data were processed

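Total RNA (150 ng per labelling) was measured on 2 two-colour Agilent arrays of opposite dye orientation. The deposited scanner files give spot intensity. Per the submitters' processing notes, the scanner software was Feature Extraction 10.7.3.1, with probe positions on mm9 per the file headers. The deposited log10 ratio of the scanner software divides red by green processed signals, per the file headers, and was not used for the fits. The authors' deposited value table holds a signed fold-like score. Its correlation with red over green was 0.84 and -0.85, so it runs mutant over control on both arrays, while its centring, and why 8097 and 9100 probes stand at exactly 1, are unknown. Its column medians are 1.

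Signals were background-corrected with normexp (offset 50), loess-normalised within arrays with control and filler spots at weight 0, and averaged over 4 spots. Outlier spots (3.17% and 3.65%) were left out, and no spot was saturated. Ratios were turned to mutant over control. Testing required a probe to exceed background clearly, on each of the 2 arrays, for mutant or for control RNA. This kept 28915 of 39429 probes, and each of 22070 genes was represented by its brightest probe. limma 3.58.1 (R 4.3.3) tested ratios against 0 with moderated variances and Benjamini-Hochberg adjustment. The variance shared over all genes carried 7.45 degrees of freedom, against 1 from a gene's own 2 ratios. Signal levels are separate channels after Aquantile normalisation. The scripts were tested on simulated data. Genes there were independent, with spreads drawn from the variance fitted over all genes, and 200 of 22070 were altered in each of 10 runs. Effects of sex, dye or sample were not simulated. In those data a median of 10.1% of the genes that passed had not been altered, with a range from 3.23% to 32.2%. Of the genes set to a ratio of 0.5, 34.4% were recovered, against 98.7% at 1 and 100% at 2.

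Names came from the RefSeq table (GRCm38.p6) by accession for 28328 probes and by symbol for 3400, and 7701 kept the file's name. Every member is described, with full statistics for those past the threshold and for Wnt7b, and of the other pathway lists the genes past the threshold are named, with some others chosen after their values were seen. Members and lists were chosen with earlier results of these data known. Alternatives were other background and normalisation methods, filters, probe summaries, the authors' values and leaving out an array.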

Additional observations from a re-analysis of the deposited data

How the results depend on the processing

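Across all genes, 836 passed as reported, against 10 with the scanner software's processed signals, 0 with median centring in place of loess (5584 at an unadjusted limma p below 0.05), 1281 with a normexp offset of 10, 170 with the authors' table, 1307 with an intensity trend and robust prior, and 3 with separate channels and no replicate block. The count with processed signals rests on how a probe's spots are summarised. It was 243 when signals were averaged over spots before the log, a setting chosen after seeing the data, against the 10 from averaged log ratios. The array is the block in the reported fit, so that last value is the fit without pairing. Among ligands, 3 passed as reported and 0 with processed signals (either way of averaging), median centring, the authors' table or separate channels without the replicate block. Among receptors, 2 passed as reported, 1 with the authors' table or with signals averaged before the log, and 0 with processed signals, median centring or separate channels without the block. The cause was not tested.

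The ligand median of 0.24 was 0.058 with median centring and 0.043 with no filter, and ran from 0.17 to 0.28 when either array was left out. The receptor median of 0.10 was -0.035 with median centring and 0.14 with the authors' table, and ran from 0.06 to 0.12 when either array was left out. Over all genes, that centring shifted the median by -0.12. Relative to all genes, the ligand median was 0.26 as reported and 0.20 centred, and the receptor median was 0.11 in both. Centring changed the sign of 5 members (Fzd2, Fzd3, Fzd7, Fzd8 and Wnt10b), none of which passed. With 1 array left there is no test, and the 5 members that rose had ratios from 0.72 to 1.08 on array 2 alone and from 0.52 to 0.68 on array 1 alone.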
